A study of Mus musculus with 6 samples.

Results

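The genes described here are the Wnt ligands, their receptors and the secreted proteins that raise or lower Wnt signalling, read in RNA from 3 tissues of the mouse hind limb. They were chosen by symbol, as every gene named Wnt, Fzd, Rspo, Sfrp or Dkk with its number, plus Lrp5, Lrp6, Wif1, Frzb, Lgr4, Lgr5 and Lgr6. This gave 48 genes of the 18996 with a symbol in the deposited abundance tables. They comprised 19 Wnt ligands, 10 Frizzled receptors, 2 Lrp co-receptors, 4 R-spondins, 3 Lgr receptors, 5 genes of the Sfrp family with Frzb among them, Wif1, and 4 Dkk genes. The count tables of all 3 tissues listed 43 of the 48, and 41 of these had enough counts to be tested.

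Wnt ligands are lipid-modified proteins that bind a Frizzled receptor, and for the beta-catenin branch also Lrp5 or Lrp6. R-spondins bind Lgr receptors and keep Frizzled proteins on the cell surface, which makes a cell more sensitive to Wnt. Sfrp proteins, Frzb and Wif1 bind Wnts outside the cell, whereas Dkk1, Dkk2 and Dkk4 bind the Lrp co-receptors. In adipose tissue the beta-catenin branch is known to hold back fat cell formation, in muscle it acts in regeneration, and in joints it takes part in the formation of the joint space.

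Of each tissue 2 libraries were sequenced, the tissues being infrapatellar fat pad (a cushion of fat below the kneecap), Achilles tendon, and rectus femoris, a thigh muscle. Its title names female mice and letrozole, a blocker of the oestrogen-making enzyme aromatase. The labels give neither age, strain nor genotype. Titles of both fat pad libraries carry the drug's name and titles of the tendon and muscle libraries do not, and no label sets treated against untreated mice within a tissue. Drug and tissue therefore cannot be told apart wherever the fat pad enters a comparison, and no effect of letrozole was tested. Codes in the titles also differ from tissue to tissue and are not explained. Whether the libraries of a tissue stem from different animals is not in the labels, and the spread behind each p-value may thus be technical.

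The fat pad libraries summed to 83132413 and 106319037 counts, against 59042675 and 62063826 in tendon and 56216295 and 58544836 in muscle. Levels are given as CPM, the count scaled for library depth and for TMM factors. A count of 0 allowed at most 0.0332 and 0.0267 CPM on that scale in the fat pad libraries, 0.0386 and 0.0412 in tendon, and 0.0735 and 0.0661 in muscle, for counting error only. In tendon and muscle the deposited TPM of the 2 libraries did not follow their counts, so values of a single library there hold for the count tables alone. The tissue label in one field names the fat pad for all 6 libraries, and the markers followed the field that names 3 tissues. Adipocyte markers summed to 73085 and 80139 CPM in fat pad, against 735 to 3399 in tendon and 451 to 1045 in muscle. Muscle fibre markers summed to 200 and 197 CPM in fat pad, 33505 and 68986 in tendon, and 283416 and 251197 in muscle. Tenocyte markers summed to 679 and 421 CPM in fat pad, 18523 and 19182 in tendon, and 2196 and 1476 in muscle.

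The fat pad libraries also held RNA that marks other cells. Synovial lining markers summed to 16778 and 18883 CPM in fat pad, against 812 to 1372 in tendon and 432 to 435 in muscle. Most of the fat pad sums came from Prg4, with 13470 and 16771 CPM. Has1, Tspan15, Htra4 and Hbegf were also higher in fat pad than in tendon and muscle. Clic5 went the other way against muscle, with 211 and 113 CPM in fat pad and 362 and 384 in muscle. Macrophage markers came to 4915 and 7402 CPM in fat pad, 390 and 321 in tendon, and 388 and 350 in muscle. Lyz2 alone gave 4347 and 6588 CPM of the fat pad sums. Cd68, Csf1r and Adgre1 were also higher in fat pad than in muscle, whereas Mrc1 and Cd163 were lower. Mrc1 had 35.9 and 52.5 CPM in fat pad and 64.5 and 67.5 in muscle. Neutrophil and marrow markers summed to 1803 CPM for library 1 of the fat pad and 247 for its library 2, whereas the tendon and muscle libraries reached 6.40 at most. Erythroid markers summed to 29220 and 9379 CPM in fat pad, and tendon and muscle libraries held 258 at most. Bone markers came to 159 and 58.5 CPM in fat pad, 14.9 and 20.2 in tendon, and 2.70 and 2.29 in muscle. Most of the fat pad sums came from Ibsp (87.8 and 9.37 CPM) and Bglap (64.9 and 44.9). Runx2 was lower in fat pad (2.20 and 1.59 CPM) than in tendon (2.77 and 6.71). Within tendon, Schwann cell markers stood at 1607 CPM in library 1 and 228 in library 2. In bulk tissue fewer cells of a type and less RNA per cell cannot be told apart, and the part of these cells in the results that follow was not tested.

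Most Wnt genes had less RNA in fat pad than in tendon. With edgeR's quasi-likelihood test and Benjamini-Hochberg adjustment (an adjusted p under 0.05 was taken as a call), 26 of the 41 tested members fell below tendon and 3 lay above it. Over all 15856 genes tested, 31.4% were called lower and 27.2% higher in that comparison, or 58.5% either way. The median log2 fold change was -1.87 over the 41 genes and -0.01 over all genes. Against muscle, 17 were lower in fat pad and 7 higher, beside 29.6% lower and 29.8% higher over all genes (59.4% either way), with medians of -1.19 and 0.14. Between tendon and muscle, 12 were higher in tendon and 1 was lower, beside 13.3% higher and 12.7% lower over all genes (26.0% either way), with medians of 1.12 and 0.10. The 2 fat pad comparisons share the fat pad libraries, and each tissue enters 2 of the 3 comparisons. Without muscle library 1 only Fzd1 stayed called in tendon over muscle, and without muscle library 2 no Wnt gene did by edgeR, while 13 there had an unadjusted p under 0.05 in the higher direction. Few genes of any kind were called in these fits, with 37 higher and 6 lower of 16351 without muscle library 1, and 14 higher and 5 lower of 16343 without muscle library 2.

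**Figure D1:**
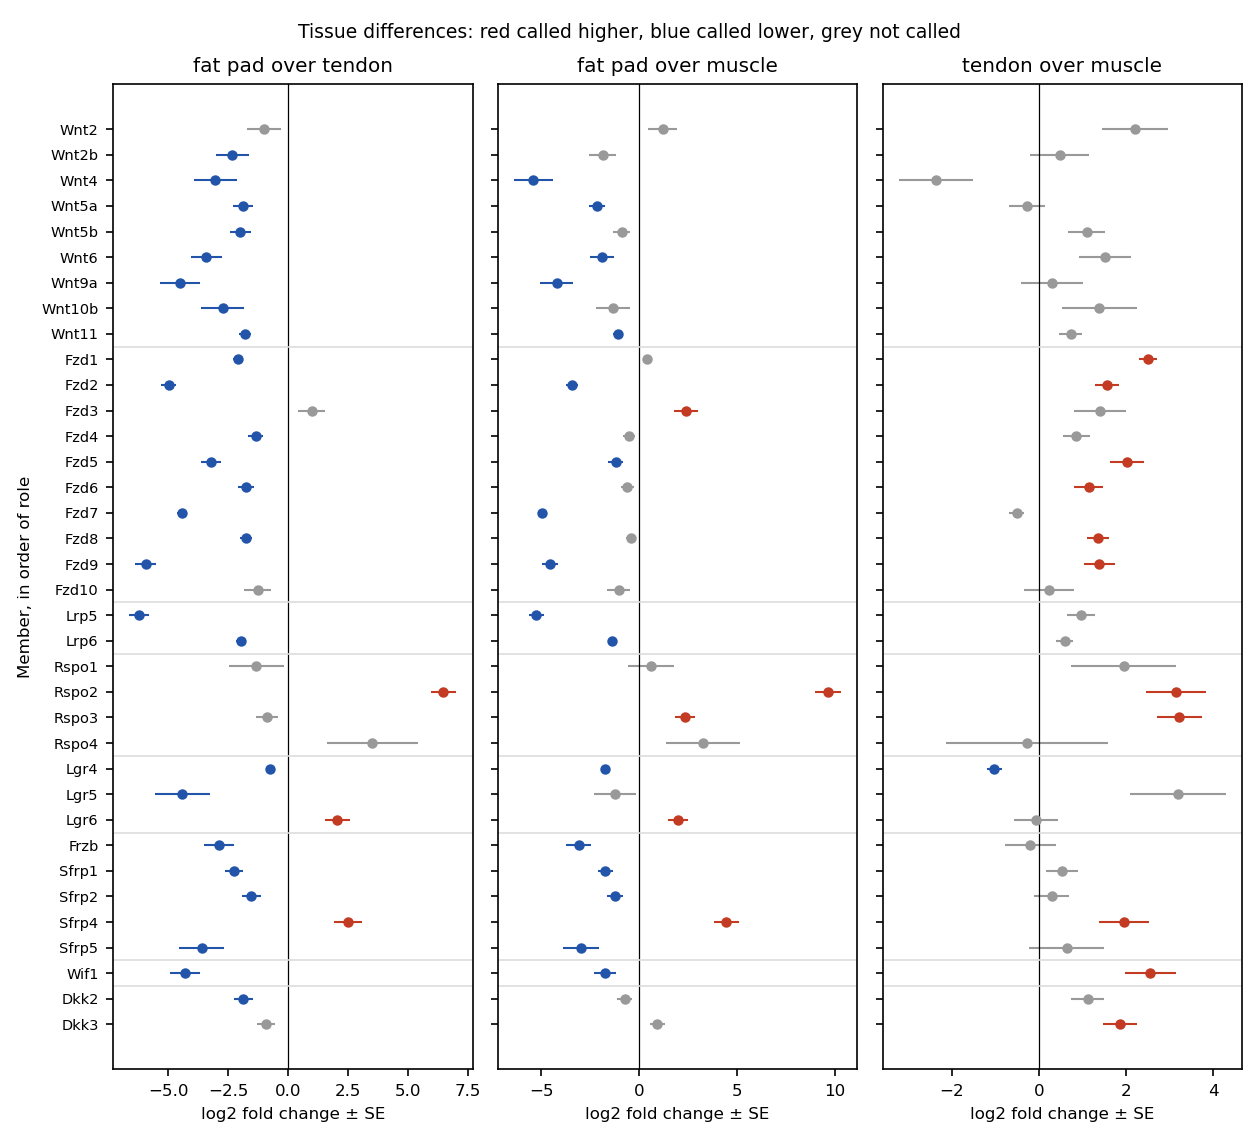
Log2 fold changes with standard errors from edgeR for the 36 described Wnt genes, in order of role, in fat pad over tendon, fat pad over muscle and tendon over muscle; red points were called higher, blue points lower and grey points neither. In the panel of fat pad over tendon 26 genes are blue, and Rspo2, Lgr6 and Sfrp4 are the 3 red ones.

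Genes of one role often shared a direction of call. In fat pad over tendon, 8 of 10 Frizzled receptors, both Lrp co-receptors, 4 of the 5 Sfrp family genes, Wif1 and 8 of 14 tested Wnt ligands were lower. The 3 higher genes, Rspo2, Lgr6 and Sfrp4, came from 3 roles. Over all genes tested, 31.4% were called lower in fat pad over tendon and 29.6% over muscle. The share called lower in both was not counted over all genes, so the joint counts here are a description only. A call of lower in fat pad against both tendon and muscle held for 17 genes. Of these, 12 had no call between tendon and muscle (Wnt4, Wnt5a, Wnt6, Wnt9a, Wnt11, Fzd7, Lrp5, Lrp6, Sfrp1, Sfrp2, Sfrp5 and Frzb). Fzd2, Fzd5, Fzd9 and Wif1 were in addition higher in tendon than in muscle, and Lgr4 was lower. With no call in any comparison stood Wnt2, Wnt3, Wnt9b, Wnt16, Fzd10, Rspo1 and Rspo4.

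**Figure D2:**
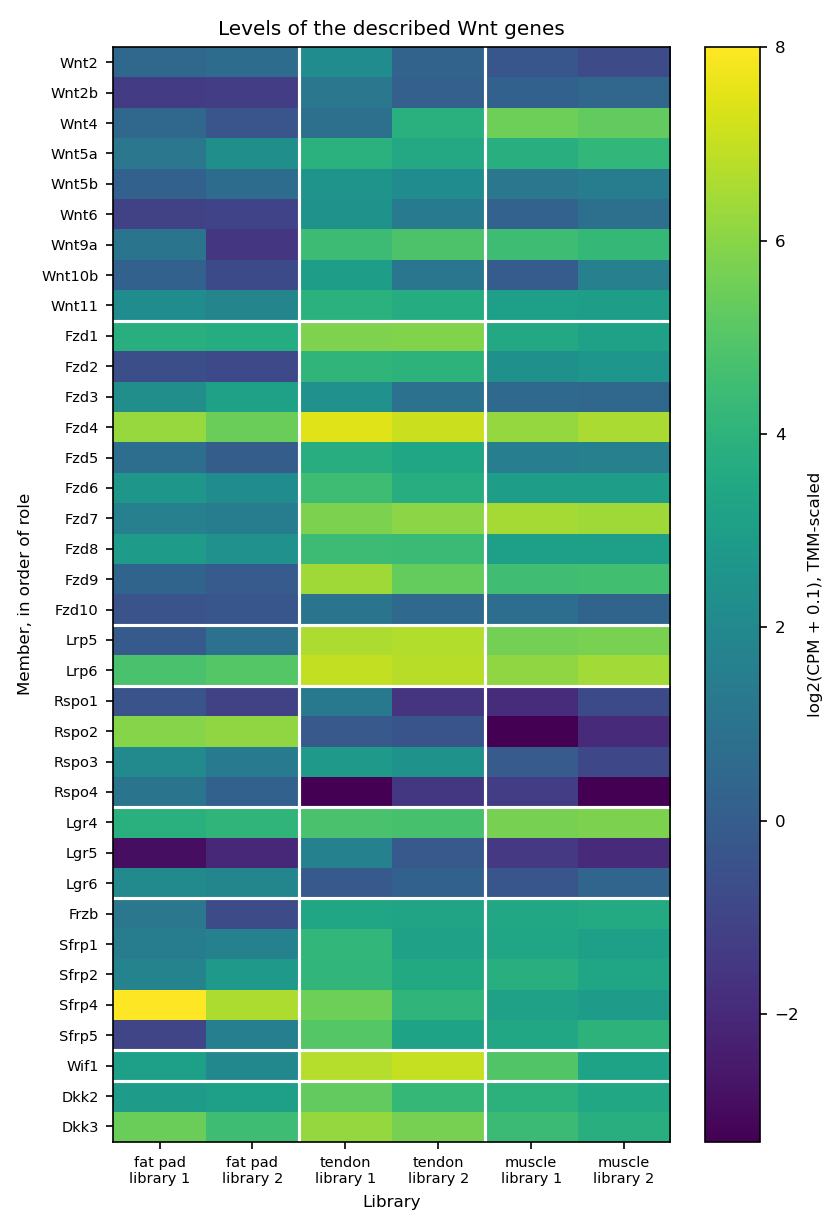
Level of the 36 described Wnt genes as log2(CPM + 0.1) in the 6 libraries, with fat pad, tendon and muscle from left to right and genes down the page in order of role. Rspo2 and Sfrp4 are brighter in the fat pad columns than in the tendon and muscle columns, while Lrp5, Fzd2, Fzd7 and Fzd9 are darker there.

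Promoters are shown for 4 genes that moved in the fat pad, 3 lower (Fzd9, Wnt4, Wif1) and 1 higher (Lgr6), so that members of both directions can be compared by eye. Each is the run of 250 bases before the start of the gene in RefSeq on GRCm38.p6, written along the gene's own strand. Capitals mark GC boxes, that is GGGCGG or its reverse complement CCGCCC, with overlapping matches counted. Lgr6 lies on the minus strand at chr1:135105277-135105526; Fzd9 lies on the minus strand at chr5:135251048-135251297, Wnt4 on the plus strand at chr4:137277385-137277634, and Wif1 on the plus strand at chr10:121033754-121034003.
Lgr6: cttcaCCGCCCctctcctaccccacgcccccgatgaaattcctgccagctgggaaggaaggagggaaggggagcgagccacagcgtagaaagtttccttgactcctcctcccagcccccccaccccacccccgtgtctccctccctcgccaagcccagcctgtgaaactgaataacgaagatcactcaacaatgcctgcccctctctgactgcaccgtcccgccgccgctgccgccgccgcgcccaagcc
Fzd9: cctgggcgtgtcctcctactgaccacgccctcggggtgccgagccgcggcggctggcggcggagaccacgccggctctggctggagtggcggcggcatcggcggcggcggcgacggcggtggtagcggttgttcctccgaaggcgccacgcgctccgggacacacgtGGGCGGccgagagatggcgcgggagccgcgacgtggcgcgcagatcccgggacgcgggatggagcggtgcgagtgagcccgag
Wnt4: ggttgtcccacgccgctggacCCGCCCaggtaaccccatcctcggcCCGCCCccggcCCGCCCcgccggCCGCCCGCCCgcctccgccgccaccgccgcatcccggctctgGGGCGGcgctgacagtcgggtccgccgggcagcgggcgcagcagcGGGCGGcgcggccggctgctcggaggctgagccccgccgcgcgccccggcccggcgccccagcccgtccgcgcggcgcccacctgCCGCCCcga
Wif1: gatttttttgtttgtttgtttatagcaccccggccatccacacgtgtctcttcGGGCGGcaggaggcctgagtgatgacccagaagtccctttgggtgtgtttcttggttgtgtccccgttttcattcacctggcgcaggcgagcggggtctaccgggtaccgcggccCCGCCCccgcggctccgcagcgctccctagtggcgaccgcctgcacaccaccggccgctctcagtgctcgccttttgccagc
Wnt4 held 8 GC boxes and Wif1 held 2, against 1 each in Fzd9 and Lgr6. CpG pairs numbered 16 in Lgr6, 21 in Wif1, 42 in Fzd9 and 44 in Wnt4. RefSeq windows were found for 31 of the 48 genes, as 34 windows, and 24 of these windows (70.6%) held a GC box, beside 32.7% of 32851 windows of all genes. The motif CTTTGAT or its reverse complement, the letters bound by TCF and LEF factors, was in 2 of the 34 windows (5.88%) and in 3.21% of all. TATAAA on either strand was in 5 of the 34 (14.7%) and in 12.4% of all. The median GC content was 66.8% in the 34 windows and 52.4% in all. Lgr6, higher in the fat pad, had a GC content of 65.2%, and Wif1, lower there, had 62.8%.

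Among the Wnt ligands, 8 of 14 tested were lower in fat pad against tendon and 5 against muscle (all genes 31.4% and 29.6%). In the values that follow, ± is the standard error, and a pair in parentheses after a left-out library is the log2 fold change and its edgeR adjusted p. Wnt9a, a ligand known from joint formation, had 1.95 and 0.249 CPM in fat pad, 21.7 and 28.2 in tendon, and 22 and 18.5 in muscle. Both fat pad libraries lay below the other 4, although they differed from each other by a log2 ratio of -2.97 (library 2 over library 1). The log2 fold change was -4.52 ± 0.84 (SE) over tendon with an edgeR adjusted p of 0.00339, and -4.22 ± 0.83 over muscle with 0.00431.

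Wnt4, needed in the mouse for kidney and ovary development, had 1.27 and 0.703 CPM in fat pad, 1.73 and 14.5 in tendon, and 45.1 and 38.3 in muscle. Muscle was high in both libraries, and tendon was split, with library 2 above library 1 by a log2 ratio of 3.07. Its log2 fold change over muscle was -5.40 ± 0.99 (edgeR adjusted p 0.00305). Over tendon it was -3.04 ± 0.89 (0.0232), and that call rested on tendon library 2, without which the value was -0.82 with an adjusted p of 0.114. It was also lost without fat pad library 1 (-3.47, adjusted p 0.0783) or 2 (-2.68, 0.138). Myh4, a fast muscle myosin, stood at 596 CPM in tendon library 1 and at 19284 in library 2, beside 96411 and 96345 in muscle. The sum of muscle fibre markers was also higher in tendon library 2, the library with more Wnt4 counts. Myh2 and Myh7 of that list went the other way. Tendon library 1 had 6177 and 4983 CPM of them, and library 2 had 3145 and 2547. In the deposited TPM Wnt4 was not split in tendon, at 9.73 and 9.50. The part of muscle fibre RNA in the Wnt4 level was not tested.

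Wnt5a, which signals largely through Ror receptors without beta-catenin, had 2.18 and 4.94 CPM in fat pad, 15.0 and 11.2 in tendon, and 13.7 and 17.9 in muscle. The fat pad was low in both libraries, and tendon and muscle overlapped. The log2 fold change was -1.87 ± 0.42 over tendon (edgeR adjusted p 0.00767) and -2.15 ± 0.42 over muscle (0.0044). With offsets for GC content and length the tendon value was -1.05 and no longer called (0.075). Wnt11, a ligand of the polarity branch, had 4.41 and 3.44 CPM in fat pad, 14.8 and 12.6 in tendon, and 8.4 and 8.15 in muscle. The 3 tissues did not overlap, with the fat pad lowest and tendon highest. Wnt11 had a log2 fold change of -1.80 ± 0.26 over tendon (0.00117) and -1.08 ± 0.26 over muscle (0.0107), the second lost without muscle library 1 (-1.06, 0.059) or 2 (-1.10, 0.0518).

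Wnt6 and Wnt10b, both known to hold back fat cell formation in culture, were low in the fat pad. Wnt6 had 0.354 and 0.391 CPM in fat pad, 5.62 and 2.35 in tendon, and 1.08 and 1.70 in muscle. The fat pad lay below every other library, and the log2 fold change was -3.41 ± 0.64 over tendon (edgeR adjusted p 0.0036) and -1.89 ± 0.61 over muscle (0.0335). The call over muscle was lost without any 1 fat pad or muscle library (-1.53 to -2.19, adjusted p 0.0562 to 0.155). Wnt10b had 1.03 and 0.489 CPM in fat pad, 8.04 and 2.06 in tendon, and 0.882 and 2.97 in muscle. Tendon library 1 was high and the fat pad overlapped muscle. Its log2 fold change over tendon was -2.74 ± 0.89 (0.034), and it was -1.39 with an adjusted p of 0.228 without tendon library 1, and also uncalled without fat pad library 1 (-3.29, 0.0714) or 2 (-2.30, 0.158).

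Wnt5b, the paralog of Wnt5a, had 1.03 and 1.52 CPM in fat pad, 5.77 and 4.44 in tendon, and 2.18 and 2.58 in muscle. The fat pad was lowest without overlap, and over tendon the log2 fold change was -2.0 ± 0.43 (edgeR adjusted p 0.00662). Wnt2b, a ligand of the beta-catenin branch, had 0.310 and 0.311 CPM in fat pad, 2.14 and 1.00 in tendon, and 1.03 and 1.23 in muscle. Its log2 fold change over tendon was -2.33 ± 0.70 (0.0251), lost without fat pad library 1 (-2.26, 0.0706) or 2 (-2.35, 0.0723) or tendon library 1 (-1.64, 0.165). Tendon and muscle overlapped for this gene. Wnt2, its paralog, had 1.27 and 1.52 CPM in fat pad, 4.48 and 1.13 in tendon, and 0.711 and 0.506 in muscle. The fat pad lay inside the tendon range, and no comparison was called.

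Wnt10a and Wnt7a went the other way against muscle, at very low levels. For Wnt10a the counts were 56 and 22 in fat pad, 49 and 38 in tendon, and 0 in both muscle libraries. By counts, against a limit of 3 per muscle library, its mean level was at least 5.84-fold higher in the fat pad (edgeR adjusted p 0.017). The mean in tendon was at least 8.26-fold higher (0.032). These are ratios of means, which a single library need not reach. The deposited TPM of Wnt10a was not 0 in muscle, at 0.39 and 0.12, beside 0.77 and 0.25 in fat pad. There the fat pad over muscle call was lost (log2 fold change 0.26, limma adjusted p 0.562). For Wnt7a the counts were 20 and 88 in fat pad and 0 in both muscle libraries. By counts its mean was thus at least 7.19-fold higher in fat pad (edgeR adjusted p 0.0371). Neither gene was above 0.783 CPM in any library. These 3 calls were lost without muscle library 1 or 2 (adjusted p 0.0558 to 0.136), and each also without at least 1 library of the other tissue. The levels of Wnt3, Wnt9b, Wnt16, Wnt1 and Wnt7b were under 1 CPM in every library.

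The make-up of the expressed ligands differed between tissues when counts were divided by exonic length. Wnt4 made up 7.3% and 4.4% of the length-scaled Wnt ligand sum in the fat pad, 1.8% and 16.5% in tendon, and 45.9% and 41.0% in muscle. Wnt9a made up 14.0% and 2.0% in the fat pad, 29.0% and 40.4% in tendon, and 28.2% and 25% in muscle. The share of Wnt11 was 25.5% and 22% in the fat pad, 15.9% and 14.5% in tendon, and 8.7% and 8.9% in muscle. The ligand sum itself was 4.18 and 3.79 CPM per kilobase in the fat pad, 22.5 and 21 in tendon, and 23.4 and 22.3 in muscle.

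**Figure D3:**
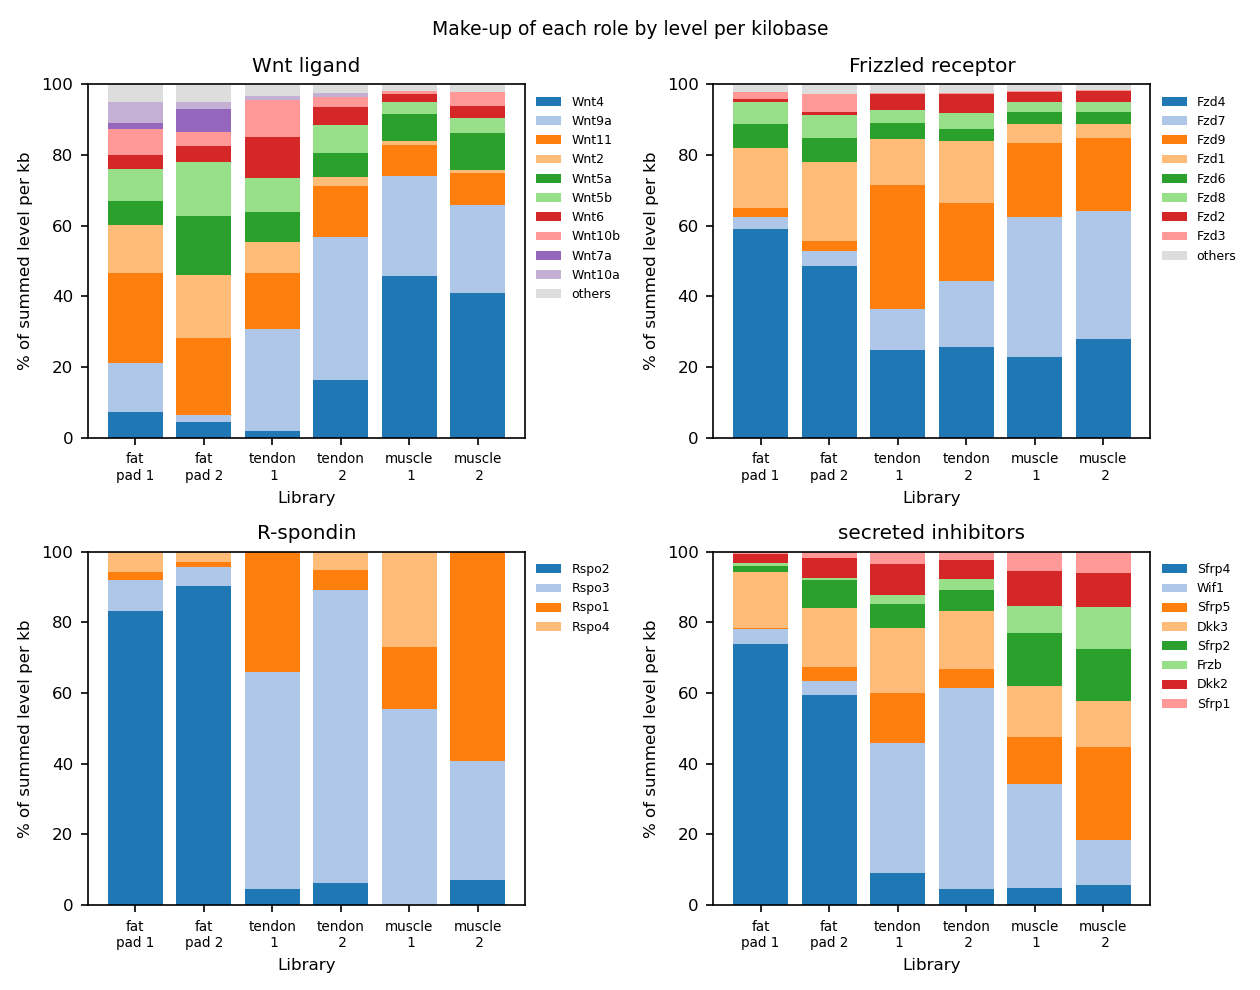
Share of each gene in the summed level per kilobase of exon of its role, in percent, for the Wnt ligands, Frizzled receptors, R-spondins and secreted inhibitors in each of the 6 libraries. Rspo2 fills 83.2% and 90.3% of the R-spondin bars in the fat pad, and Fzd4 fills 59.2% and 48.7% of the Frizzled bars there.

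Of the 10 Frizzled receptors, all but Fzd3 and Fzd10 were called lower in fat pad against tendon. Fzd7, a receptor known on muscle stem cells, had 2.94 and 2.57 CPM in fat pad, 54.5 and 65.6 in tendon, and 87.7 and 83.2 in muscle. The 3 tissues were apart, muscle highest. The log2 fold change was -4.45 ± 0.20 over tendon (edgeR adjusted p 5.56e-05) and -4.95 ± 0.21 over muscle (3.64e-05), and -0.51 ± 0.18 between tendon and muscle, with no call (0.0726). When libraries were scaled by total counts alone, the tendon over muscle value turned to 0.21.

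Fzd9, a receptor known from bone formation in the mouse, had 1.15 and 0.854 CPM in fat pad, 83.6 and 39.5 in tendon, and 23.2 and 24.0 in muscle. Both fat pad libraries were more than an order of magnitude below the lowest of the others. Fzd9 had a log2 fold change of -5.94 ± 0.44 over tendon (edgeR adjusted p 9.53e-05), -4.56 ± 0.41 over muscle (0.000141), and 1.38 ± 0.36 in tendon over muscle (0.033). The last was lost without tendon library 1 (0.73, adjusted p 0.128), without muscle library 1 (1.36, 0.168) or 2 (1.42, 0.132), without fat pad library 2 (1.39, 0.0501), and with offsets for GC content and length (1.00, 0.111). Fzd2 had 0.564 and 0.462 CPM in fat pad, 16.9 and 15.9 in tendon, and 5.02 and 6.10 in muscle. The order tendon, muscle, fat pad held in every library. Its values were -5.0 ± 0.32 over tendon (7.31e-05), -3.44 ± 0.30 over muscle (0.000122) and 1.56 ± 0.27 in tendon over muscle (0.0125), the last not called without muscle library 1 (1.44, 0.111) or 2 (1.72, 0.0721).

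Fzd1, Fzd6 and Fzd8 stood high in tendon alone. Fzd1 had 13.8 and 12.6 CPM in fat pad, 56.6 and 57.8 in tendon, and 11.4 and 8.79 in muscle. Tendon was above both other tissues, and fat pad and muscle were close. Its log2 fold change was -2.11 ± 0.20 in fat pad over tendon (edgeR adjusted p 0.000211), 2.50 ± 0.21 in tendon over muscle (0.00377), and 0.39 ± 0.20 in fat pad over muscle (0.127, not called). The tendon over muscle value was 2.34 with an adjusted p of 0.0542 without muscle library 2. Fzd8 had 7.32 and 5.18 CPM in fat pad, 21.7 and 21 in tendon, and 8.36 and 8.37 in muscle. Fzd6, which orients hairs in mouse skin, had 6.18 and 4.43 CPM in fat pad, 22.5 and 13.1 in tendon, and 7.94 and 8.17 in muscle. In both, tendon lay above every other library. Fzd8 changed by -1.77 ± 0.25 in fat pad over tendon (0.000982) and by 1.35 ± 0.25 in tendon over muscle (0.014). Fzd6 changed by -1.75 ± 0.33 (0.00387) and 1.15 ± 0.33 (0.0449) in the same comparisons. The tendon over muscle calls of both were lost without muscle library 1 or 2, with adjusted p between 0.0853 and 0.206, and Fzd6 stood at 0.69 (0.235) without tendon library 1. The Fzd6 call was marginal, with adjusted p of 0.0503 and 0.0509 without fat pad library 1 or 2.

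Fzd5 and Fzd4 were also highest in tendon. Fzd5, close in sequence to Fzd8, had 1.59 and 0.916 CPM in fat pad, 13.3 and 9.98 in tendon, and 2.77 and 2.95 in muscle. The tissues did not overlap, with log2 fold changes of -3.21 ± 0.41 over tendon (edgeR adjusted p 0.000615), -1.19 ± 0.39 over muscle (0.0331) and 2.02 ± 0.39 in tendon over muscle (0.0157). The fat pad over muscle call for Fzd5 was lost under 8 of the alternatives, among them the sets without fat pad library 2 (-0.85, 0.0984), tendon library 1 (-1.16, 0.0506), muscle library 1 (-1.24, 0.0939) and muscle library 2 (-1.15, 0.117). Tendon over muscle for Fzd5 was lost without tendon library 1 (1.79, 0.06) and without either muscle library. Fzd4, the receptor that also binds Norrin in retinal vessels, had 77.2 and 44.1 CPM in fat pad, 173 and 136 in tendon, and 74.9 and 95.9 in muscle. Fat pad and muscle overlapped, and tendon was higher than both. Its log2 fold change over tendon was -1.35 ± 0.31 (0.00855), and -0.70 without a call (0.0651) once GC content and length were offset.

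Fzd3 was the 1 Frizzled gene called higher in fat pad over muscle. Fzd3, known from axon guidance, had 4.79 and 8.94 CPM in fat pad, 5.19 and 1.77 in tendon, and 1.35 and 1.28 in muscle. The fat pad overlapped tendon and lay above muscle, with 2.39 ± 0.61 over muscle (edgeR adjusted p 0.0136) and 0.98 ± 0.58 over tendon (0.186). The call over muscle was lost without fat pad library 2 (1.86, 0.0716) and without muscle library 1 (2.42, 0.0673) or 2 (2.34, 0.0746). Fzd10 stayed at 0.642 and 0.711 CPM in fat pad, 1.92 and 1.36 in tendon, and 1.62 and 1.17 in muscle, with -1.28 ± 0.58 over tendon (0.0977, not called).

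In the fat pad Fzd4 made up about as much of the Frizzled sum as all other Frizzleds together, counted per length. Fzd4 held 59.2% and 48.7% of the length-scaled Frizzled sum in the fat pad, 24.9% and 25.8% in tendon, and 22.9% and 28.1% in muscle. Fzd7 held 3.3% and 4.2% in the fat pad, 11.6% and 18.5% in tendon, and 39.7% and 36.1% in muscle. Fzd9 held 2.6% and 2.8% in the fat pad, 35.2% and 22% in tendon, and 20.7% and 20.6% in muscle. The sum was 19.4 and 13.5 CPM per kilobase in the fat pad, 104 and 78.3 in tendon, and 48.8 and 50.8 in muscle, so every library of the fat pad was below every other one.

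Lrp5 had the lowest log2 fold change of the tested Wnt genes in fat pad over tendon. This co-receptor, whose loss lowers bone mass in mice, gave 75 and 205 counts from fat pad, 7586 and 7491 from tendon, and 2048 and 2393 from muscle. On the scaled level it had 0.830 and 1.82 CPM in fat pad, 97.7 and 103 in tendon, and 50.2 and 52.7 in muscle. Both fat pad libraries were far below all others. The log2 fold change was -6.23 ± 0.40 over tendon (edgeR adjusted p 7.47e-05) and -5.27 ± 0.38 over muscle (7.06e-05). With offsets for GC content and length it was -5.02 and -4.42, still called. Lrp6, the other co-receptor, had 26.9 and 32.4 CPM in fat pad, 124 and 109 in tendon, and 69.7 and 85.0 in muscle. The fat pad was lowest, tendon highest, and no library overlapped. Lrp6 changed by -1.97 ± 0.20 over tendon (0.000269) and by -1.38 ± 0.20 over muscle (0.00108). Lrp5 gave 4.2% and 7.3% of the length-scaled sum of the pair in the fat pad, 52.6% and 57.0% in tendon, and 50.3% and 46.5% in muscle.

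**Figure D4:**
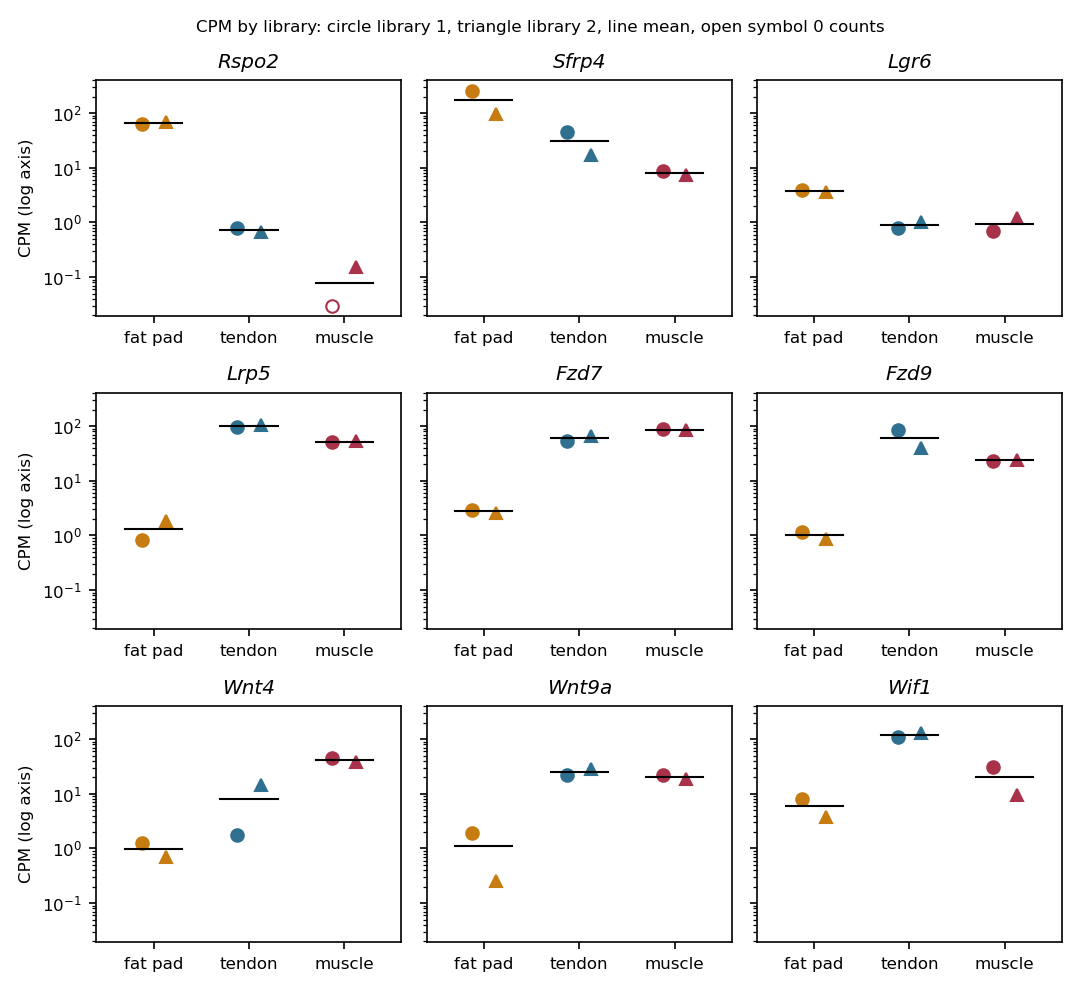
CPM on a log axis for 9 Wnt genes in fat pad, tendon and muscle, with a circle for library 1, a triangle for library 2 and a line for their mean; an open symbol at the low end stands for 0 counts. Rspo2, Sfrp4 and Lgr6 (top row) are highest in fat pad, where Rspo2 reaches 62.1 and 69.6 CPM, and the other 6 are lowest there, with Lrp5 at 0.830 and 1.82.

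Among the R-spondins, Rspo2 was far higher in the fat pad, against both tendon and muscle. Rspo2, needed for limb and lung development in the mouse, had 62.1 and 69.6 CPM in fat pad, 0.799 and 0.660 in tendon, and 0 and 0.154 in muscle. Tendon and muscle each lay more than an order of magnitude below both fat pad libraries. Rspo2 had a log2 fold change of 6.49 ± 0.53 over tendon (edgeR adjusted p 0.000128) and 9.64 ± 0.67 over muscle (6.51e-05). Muscle held few or no counts of Rspo2, so without muscle library 2 the value of 15.34 is no bound of a fold. Between tendon and muscle it was 3.15 ± 0.69 (0.0214), lost without muscle library 1 (2.24, 0.0695) or 2 (8.86, 0.0511) and when only those 4 libraries were fitted (3.24, 0.104).

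Rspo3, known from the patterning of liver lobules, ran differently. It had 3.99 and 2.54 CPM in fat pad, 6.66 and 5.43 in tendon, and 0.858 and 0.440 in muscle. All 3 tissues were apart, tendon highest, and the values were 2.33 ± 0.50 in fat pad over muscle (edgeR adjusted p 0.00638), 3.22 ± 0.52 in tendon over muscle (0.0106) and -0.89 ± 0.47 in fat pad over tendon (0.142, not called). Without muscle library 1 or 2 the tendon over muscle call was lost (3.78 and 2.82, adjusted p 0.0695 and 0.0706). Rspo1 had 0.642 and 0.373 CPM in fat pad, 2.31 and 0.234 in tendon, and 0.172 and 0.484 in muscle, and its tissues overlapped. Rspo4 had 1.98 and 1.05 CPM in fat pad, 0 and 0.261 in tendon, and 0.319 and 0 in muscle, without a call although the fat pad was above all others. Of the R-spondin sum, Rspo2 made up 83.2% and 90.3% in the fat pad, 4.5% and 6.1% in tendon, and 0% and 7.1% in muscle. Rspo3 made up 8.9% and 5.5% in the fat pad, 61.6% and 83.0% in tendon, and 55.5% and 33.7% in muscle.

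Lgr4, an R-spondin receptor expressed in many tissues, was the one tested Wnt gene called lower in all 3 comparisons, lowest in the fat pad and highest in muscle. It had 14.6 and 16.7 CPM in fat pad, 26.6 and 25.9 in tendon, and 51.3 and 55.2 in muscle. By counts the tissues stood apart in every library, while in the deposited TPM tendon (18.4 and 24.0) and muscle (27.7 and 18.6) overlapped. The log2 fold change was -0.75 ± 0.17 over tendon (edgeR adjusted p 0.00844), -1.77 ± 0.17 over muscle (0.000199) and -1.02 ± 0.17 in tendon over muscle (0.0118). The first was lost with offsets for GC content and length (-0.35, 0.155). The last was lost without muscle library 1 or 2 (log2 fold changes of -1.07 and -0.96) and with total-count scaling (-0.29, 0.246). It was also lost in the deposited TPM (-0.11, limma adjusted p 0.769). Lgr6, known on stem cells of hair follicles, had 3.99 and 3.62 CPM in fat pad, 0.799 and 1.03 in tendon, and 0.711 and 1.19 in muscle. The fat pad was higher in both libraries, with 2.06 ± 0.51 over tendon (0.0121) and 2.00 ± 0.52 over muscle (0.0139), the second lost without muscle library 1 (1.67, 0.0962). The deposited TPM values gave Lgr6 a log2 fold change of -0.55 over tendon, the other way round, and 0.74 over muscle, not called (limma adjusted p 0.388). Lgr5 had 0.0332 and 0.142 CPM in fat pad, 3.09 and 0.797 in tendon, and 0.270 and 0.154 in muscle. It changed by -4.42 ± 1.14 over tendon (0.0138), a call lost without fat pad library 1 (-3.68, 0.0566) or tendon library 1 (-3.10, 0.127), and it is a marker of intestinal stem cells.

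Of the secreted inhibitors, Sfrp4 was called higher in fat pad over tendon and 6 were called lower (Sfrp1, Sfrp2, Sfrp5, Frzb, Wif1 and Dkk2). Sfrp4 had 257 and 97.5 CPM in fat pad, 45.6 and 17.1 in tendon, and 8.72 and 7.46 in muscle. The tissues did not overlap, while library 1 exceeded library 2 in fat pad and tendon by a log2 ratio of -1.40 and -1.41 (library 2 over library 1). Log2 fold changes were 2.50 ± 0.58 over tendon (edgeR adjusted p 0.00916), 4.45 ± 0.64 over muscle (0.00104) and 1.95 ± 0.58 in tendon over muscle (0.0482). The last was lost without tendon library 1 (1.07, 0.194) and without muscle library 1 (2.08, 0.187) or 2 (1.85, 0.186), and in the deposited TPM the first was 0.68 (0.306). The sums of erythroid, bone, and neutrophil and marrow markers were likewise higher in fat pad library 1, and their part was not tested. Of the bone markers, Sp7 and Phex went the other way, with 0.465 and 0.177 CPM in fat pad library 1 and 1.02 and 0.889 in library 2.

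Sfrp1, Sfrp2, Sfrp5 and Frzb were all called lower in fat pad against both other tissues. Sfrp1 had 2.64 and 3.01 CPM in fat pad, 18.2 and 8.88 in tendon, and 10.4 and 8.32 in muscle, with -2.26 ± 0.39 over tendon (edgeR adjusted p 0.00247) and -1.72 ± 0.39 over muscle (0.00761). Frzb, known as a cartilage inhibitor of Wnt, had 2.16 and 0.498 CPM in fat pad, 10.1 and 9.69 in tendon, and 10.7 and 12.0 in muscle, with -2.90 ± 0.63 (0.00685) and -3.10 ± 0.64 (0.00529). In both, every fat pad library was below every other. Sfrp5 had 0.420 and 2.91 CPM in fat pad, 31.9 and 9.29 in tendon, and 10.9 and 15.7 in muscle, with -3.62 ± 0.95 over tendon (0.0147) and -2.99 ± 0.93 over muscle (0.0283). The Sfrp5 value over muscle moved to -4.98 without fat pad library 2 and was lost without fat pad library 1 (-2.15, 0.0684) and without muscle library 1 (-3.23, 0.0523) or 2 (-2.70, 0.0894). Over tendon Sfrp5 was -5.62 without fat pad library 2. Sfrp2 had 3.29 and 6.73 CPM in fat pad, 17.4 and 11.7 in tendon, and 13.8 and 9.91 in muscle. Its values of -1.54 ± 0.41 over tendon (0.0157) and -1.24 ± 0.41 over muscle (0.0347) were the smallest of the 4. Both were lost without fat pad library 1 (-1.05, 0.0631 and -0.78, 0.128), the first also without tendon library 1 (-1.18, 0.0674), the second without muscle library 1 (-0.99, 0.162) or 2 (-1.47, 0.0565). Another gene of the annotation covers 16.1% of the Sfrp2 exonic bases, so reads could be split there, and the same holds for 17.8% of Fzd5, 13.1% of Rspo3, 8.8% of Wnt11, 4.6% of Wnt5a and 3.2% of Fzd6.

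Wif1, a Wnt binding protein also found in cartilage, had 8.19 and 3.82 CPM in fat pad, 107 and 128 in tendon, and 30.7 and 9.49 in muscle. Tendon was high, muscle was spread and the fat pad was lowest. For Wif1 the log2 fold change was -4.30 ± 0.63 over tendon (edgeR adjusted p 0.00119), -1.74 ± 0.57 over muscle (0.0351) and 2.55 ± 0.59 in tendon over muscle (0.024). Over muscle Wif1 was -0.67 with an adjusted p of 0.266 without muscle library 1, and -1.30 (0.174) without fat pad library 2. Tendon over muscle was not called without muscle library 1 (3.64, 0.0606) or 2 (1.95, 0.08).

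Dkk2, an inhibitor at the Lrp co-receptors, had 7.47 and 8.36 CPM in fat pad, 39.2 and 18.6 in tendon, and 15.6 and 10.9 in muscle. The fat pad was lowest, with -1.87 ± 0.38 over tendon (edgeR adjusted p 0.00528), which was -1.18 without tendon library 1 (0.017). Dkk3, which does not bind the Lrp co-receptors, had 44.4 and 22.2 CPM in fat pad, 74.8 and 51.2 in tendon, and 21.2 and 13.6 in muscle. Tendon was higher than both, and fat pad was above muscle in both libraries. Dkk3 was called in tendon over muscle at 1.86 ± 0.40 (0.02), not in fat pad over tendon at -0.92 ± 0.38 (0.0765) nor over muscle at 0.94 ± 0.39 (0.0731). Without tendon library 1 (1.54, 0.0608) or muscle library 1 (2.22, 0.0896) or 2 (1.58, 0.108) the call was lost. Sums of the length-scaled inhibitors were 83.0 and 39.3 CPM per kilobase in the fat pad, 120 and 92.5 in tendon, and 43.1 and 31.2 in muscle. Sfrp4 filled 74.0% and 59.4% of that in the fat pad, against 9.1% and 4.4% in tendon and 4.8% and 5.7% in muscle. Wif1 filled 4.1% and 4.0% in the fat pad, 36.8% and 57.1% in tendon, and 29.4% and 12.5% in muscle.

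Other genes of the pathway were read from 6 lists chosen with earlier results of these data known, and some genes stand in more than 1 list. Their counts stand beside the shares over all genes tested. Those were 31.4% lower and 27.2% higher in fat pad over tendon, and 29.6% and 29.8% over muscle. In tendon over muscle they were 12.7% lower and 13.3% higher. Of 7 genes of Wnt secretion and inactivation, 3 were higher and 1 lower in fat pad over tendon, 3 were higher over muscle, and 2 were higher in tendon over muscle, with median log2 fold changes of 0.91, 1.19 and 0.22. Wls, which carries Wnts to the cell surface, had 149 and 133 CPM in fat pad, 76.9 and 73.4 in tendon, and 33.6 and 36.1 in muscle. The 3 tissues did not overlap, and the log2 fold change was 0.91 over tendon (edgeR adjusted p 0.00365), 2.02 over muscle (0.000127) and 1.11 in tendon over muscle (0.01). The cargo proteins Tmed2 and Tmed5 were higher in the fat pad in both comparisons as well. Tmed5 had 163 and 120 CPM there, 40.6 and 39.7 in tendon, and 56.2 and 65.1 in muscle. Apcdd1 was the lower gene, with 17.2 and 7.85 CPM in fat pad and 63.0 and 20.3 in tendon. Its log2 fold change over tendon was -1.73 (edgeR adjusted p 0.0376).

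Receptors and modulators outside the described families were read next. Of 16 tested, 9 were lower and 1 higher in fat pad over tendon (median -1.73), 6 lower and 1 higher over muscle (-0.56), and 4 higher and 1 lower in tendon over muscle (0.80). Adgra2, the partner of Reck in Wnt7 signalling, had 1.16 and 1.43 CPM in fat pad, 50.0 and 41.8 in tendon, and 13.7 and 17.0 in muscle, with -5.14 over tendon and -3.56 over muscle. Kremen1, a receptor for Dkk proteins, had 10.9 and 8.65 CPM in fat pad, 153 and 94.5 in tendon, and 64.8 and 72.9 in muscle. In both genes the fat pad lay below every other library. Of 11 planar polarity genes, 6 were lower and 1 higher in fat pad over tendon (median -1.46), 3 lower and 3 higher over muscle (-0.26), and 4 higher in tendon over muscle (1.01). The counts over muscle were near the shares over all genes, 29.6% lower and 29.8% higher. Daam2, which links Dvl proteins to actin, had 4.18 and 3.30 CPM in fat pad, 59.7 and 60.8 in tendon, and 18.2 and 19.3 in muscle, while Celsr3, a polarity cadherin, was the higher gene, with 4.90 and 2.63 CPM in fat pad against 0.812 and 0.646 in tendon.

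Inside the cell the transduction genes were mostly lower in the fat pad. Of 17, 12 were lower and 1 higher in fat pad over tendon (median -1.39), 12 lower over muscle (-1.32), and 1 higher and 2 lower in tendon over muscle (-0.01). Gsk3a, a kinase of the beta-catenin destruction complex, had 2.75 and 2.36 CPM in fat pad, 72.4 and 91.0 in tendon, and 131 and 118 in muscle, with -5.0 over tendon and -5.61 over muscle. Dvl1, the adaptor below Frizzled, had 9.27 and 7.99 CPM in fat pad, 118 and 147 in tendon, and 221 and 206 in muscle. Both genes were lowest in the fat pad and highest in muscle in every library. The 12 genes thus include members that activate the beta-catenin branch and members that restrain it. Of 14 nuclear factors, 6 were lower and 2 higher in fat pad over tendon (median -0.63), 8 lower and 3 higher over muscle (-0.75), and 5 higher in tendon over muscle (0.56). Tcf7, a DNA binding partner of beta-catenin, was among the higher ones, with 7 and 3.26 CPM in fat pad, 1.62 and 0.880 in tendon, and 0.564 and 0.903 in muscle.

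Target genes of the beta-catenin branch were called in both directions in the fat pad comparisons. Of 17 tested, 7 were lower and 3 higher in fat pad over tendon (median -0.06), 2 lower and 5 higher over muscle (0.75), and 9 higher in tendon over muscle (1.15). The 5 higher over muscle were near the share over all genes, 29.8%. Axin2, the most used read-out of the branch, had 1.25 and 0.863 CPM in fat pad, 16.9 and 12.6 in tendon, and 6.35 and 6.06 in muscle. Tendon was highest and the fat pad lowest in every library, with log2 fold changes of -3.81 in fat pad over tendon (edgeR adjusted p 0.000171), -2.55 over muscle (0.000618) and 1.25 in tendon over muscle (0.0299). Tnfrsf19 had 2.36 and 0.587 CPM in fat pad, 14.8 and 40 in tendon, and 19.8 and 25.3 in muscle. Cd44, a hyaluronan receptor also abundant on leukocytes, went the other way against muscle, with 109 and 75.0 CPM in fat pad and 14.4 in both muscle libraries. The sum of macrophage markers was higher in the same fat pad libraries, mostly through Lyz2, while Mrc1 and Cd163 were lower there than in muscle. The part of leukocytes in the Cd44 level was not tested.

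Base composition was set beside these calls, since the medians of all genes also moved with it. In fat pad over tendon the Wnt genes above 60% GC had a median log2 fold change of -3.52 (4 genes), against -1.14 for all tested genes of that class. Those of 50 to 60% GC had -2.06 (24 genes), against -0.18 for all genes. Those of 40 to 50% had -1.75 (13 genes), against 0.18 for all genes. In fat pad over muscle the Wnt genes above 60% GC had -2.44, against -0.44 for all genes. In each of these classes the Wnt median was below that of all genes, and the part of base composition in the calls was not tested. With offsets for GC content and length, 4 Wnt genes were higher and 26 lower in fat pad than in tendon, and 7 higher and 18 lower than in muscle. Between tendon and muscle, 11 were higher and 2 lower in tendon. Over all genes that fit gave 24.5% higher and 27.2% lower in fat pad over tendon, and 27.4% and 30.0% over muscle. In tendon over muscle it gave 11.2% and 15.6%.

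**Figure D5:**
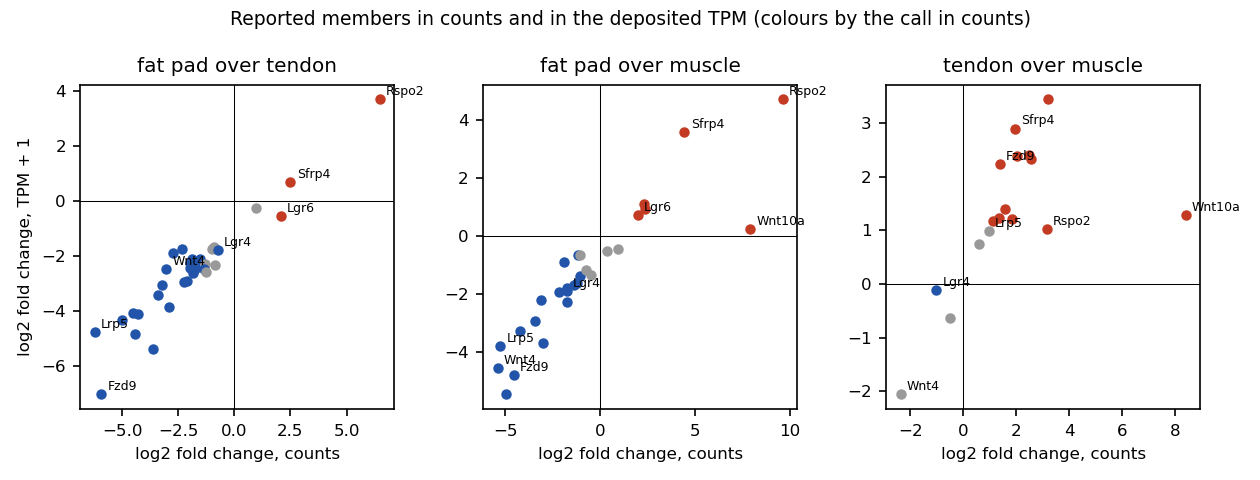
Log2 fold changes of the described and called Wnt genes from counts with edgeR (horizontal) and from the deposited TPM with limma on the log2(TPM + 1) scale (vertical), in the 3 comparisons, with colours for the call in counts as red higher, blue lower and grey neither. Most points keep their side of 0 on both axes, while Lgr6 in fat pad over tendon stands at 2.06 from counts and at -0.55 from TPM.

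Counts and the deposited TPM values were set side by side because they did not match within pairs of libraries. The ratio of library 1 to library 2 correlated across genes between counts and TPM with r = 0.995 in the fat pad, -0.226 in tendon and -0.182 in muscle, as a description over genes with at least 50 counts, which are not independent replicates. The log2 fold change of library 1 over library 2 in the authors' deposited table followed TPM (r = 0.995, 0.992 and 0.994 in fat pad, tendon and muscle), and it followed the counts in the fat pad (r = 1.00) but not in tendon (-0.222) or muscle (-0.180). Counts were used throughout as the raw values, and the files do not settle which table describes the tendon and muscle libraries. Under TPM, with limma, 1 Wnt gene was higher and 32 lower in fat pad over tendon (counts gave 3 and 26), beside 10.4% higher and 54.2% lower over all 14875 genes.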

How the data were processed

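The authors deposited whole-number read counts per gene, not normalized, and TPM per gene, for 2 libraries in each of 3 tissues, per the file headers. Each deposited table also gives the authors' log2 fold change, p-value and its −log10, of which only the fold change was used, to see whether it follows counts or TPM; in tendon and muscle it follows TPM. Bowtie2, RSEM 1.3.1 and DESeq2 1.4.5 with build GRCm39 are named in the submitters' processing notes. How reads were counted, with which strand setting and gene filter, is not given in the sources used here, so overlapping and antisense genes cannot be told apart. Columns of single libraries left unused numbered 0.

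Members and lists were chosen with earlier results of these data known. All genes listed in the 3 count tables were fitted with edgeR 4.0.16 in R 4.3.3 (TMM scaling, filterByExpr, glmQLFit and glmQLFTest, 1 term per tissue, all 6 libraries, Benjamini-Hochberg over 15856 genes, threshold 0.05). Each standard error was taken as log2 fold change over the root of the F statistic. Genes whose mean reached 1 CPM in any tissue were described with values, and fold changes printed for called ones; from each pathway list at most 4 called genes with the largest change could be named. A gene with 0 counts in a tissue was set against 3 counts per library. Alternatives were DESeq2 1.42.0, RLE, total counts, no filter, the 4 libraries of a pair of tissues, the replicate number as a block, each library left out, and deposited TPM with limma 3.58.1 on log2(TPM + 1). Offsets for GC content and length in 20 bins, and a crossed block, were chosen after seeing the data. Exonic length, GC content and overlap came from GENCODE M21, promoters from RefSeq on GRCm38.p6. On simulated data with 200 genes changed by a log2 fold of 2, 121 were recovered in fat pad over tendon and 125 in fat pad over muscle, of 15698 genes.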

Additional observations from a re-analysis of the deposited data

Results flagged for a closer look

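Some Wnt genes carried counts in the fat pad but were not listed in the tendon and muscle counts, so they entered no comparison. Dkk1, an inhibitor at the Lrp co-receptors, had 124 counts in fat pad library 1 and 25 in library 2, while the deposited TPM put it at 19.7 in tendon library 2. Wnt3a had 40 counts in fat pad library 1 and 4 in library 2, with 0.721 TPM in tendon library 2. Dkk4 had 10 counts and Wnt8a had 22 counts in fat pad library 1, and Wnt8b had 16 in library 2. A level in tendon and muscle cannot be set beside these counts.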

How the results depend on the processing

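Of the called Wnt genes, 19 of 29 in fat pad over tendon and 14 of 24 in fat pad over muscle were called under every alternative run, against 0 of 13 in tendon over muscle. Lgr6 in fat pad over tendon was the 1 called gene that turned round (-0.55 in TPM). Leaving out 1 library gave 3 to 4 higher and 22 to 26 lower genes in fat pad over tendon, 3 to 7 and 11 to 18 in fat pad over muscle, and 0 to 16 and 0 to 2 in tendon over muscle. The lowest of these counts in both comparisons with muscle came from fits without a muscle library. In those fits the shares called over all genes fell as well. The alternatives behind the 0 of 13 include these fits, so that count does not set the Wnt genes apart from other genes. Deposited TPM gave 1 higher and 32 lower over tendon (all genes 10.4% and 54.2%), 4 and 20 over muscle (20.1% and 39.1%), and 23 and 1 in tendon over muscle (28.4% and 3.41%). Scaling by total counts moved the median gene by -0.21 in fat pad over tendon, 0.51 in fat pad over muscle and 0.73 in tendon over muscle. It gave 11 lower over muscle, and 23 higher and 0 lower in tendon over muscle, with 0 lower also at an unadjusted edgeR p under 0.05; over all genes 37.6% were higher and 2.51% lower there, and 21.6% lower in fat pad over muscle. In tendon over muscle DESeq2 gave 3 lower, GC and length offsets 2 lower, and a crossed replicate block 2 lower and 18 higher. Over all genes these fits gave 17.7%, 15.6% and 17.9% lower, and the crossed block 20.2% higher.

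The replicate block gave 3 higher and 24 lower in fat pad over tendon, 7 and 15 in fat pad over muscle, and 10 and 1 in tendon over muscle. Over all genes the block gave 25.1% and 29.5%, 26.4% and 28.2%, and 9.42% and 7.98% in the same order. Under it the calls of Wnt4, Wnt2b and Wnt10b over tendon, of Sfrp2, Wnt6 and Wnt7a over muscle, and of Fzd6 and Wnt10a in tendon over muscle were lost. Deviations of same-numbered libraries correlated at 0.00217 (fat pad and tendon), -0.0267 (fat pad and muscle) and -0.167 (tendon and muscle). With 2 libraries per tissue these values cannot settle whether libraries of different tissues stem from the same animal, and the labels do not say.

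Uncalled values that turned round were Fzd3 over tendon at -0.23, Dkk3 at -0.45 and Fzd1 at -0.50 over muscle in TPM. With total counts Fzd4 over muscle was 0.021 and Fzd7 in tendon over muscle 0.21. Wnt2 was 0.36 and Rspo1 1.16 in fat pad over tendon without tendon library 1, and -1.69 and -2.19 without tendon library 2. The causes were not tested. Depth limits genes near 0 counts, such as Wnt7a and Wnt10a.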
